A study of Canis lupus familiaris with 4 samples.

Results

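The genes described here copy DNA in S phase. A list of 57 symbols was grouped by role, from origin recognition and helicase loading through synthesis and nucleotide supply to the regulators of S-phase entry and the copying of chromatin. A gene was taken where a non-control probe of the array carried its symbol as gene name, or in brackets in its description. This found 56 of the 57 genes, and DUT, which encodes dUTPase, had no such probe. The 56 genes had 88 probes, all of which were tested, among 12229 tested genes of 15761 with a symbol on the array. Each gene is given by its brightest tested probe, and all 56 of these were well above background in each of the 8 array channels.

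RNA came from the rare Sca1+/EpCAM+/CD44+ cells of P114 and of CMT-U27, lines of canine mammary cancer, which the submitters sorted by flow cytometry as cancer stem-like cells. The culture of interest held these cells together with tumour-associated macrophages (TAMs), and its control was the same sorted fraction in single culture, both of them at day 3. Each line had 2 two-colour arrays carrying the co-culture in one dye and the single culture in the other, with the dyes exchanged: the co-culture was in Cy3 on P114 array 1 and CMT-U27 array 2, and in Cy5 on P114 array 2 and CMT-U27 array 1, per the channel labels. Whether macrophages were removed before RNA extraction is not given in the sources used here. The labels call the arrays of a line biological replicates, without saying whether they held separate cultures or extracts. What varies from array to array may therefore be technical. The fits also held a term for a dye effect shared by both lines. Their p-values measure only the spread between arrays that this term leaves. If the channel order in the records of a line were wrong, all co-culture ratios of that line would change sign, and its single-culture level would become that of the co-culture.

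DNA replication starts at origins bound by the origin recognition complex (ORC). CDC6 and CDT1 load the MCM2 to MCM7 ring there, and CDC7 with DBF4 and the cyclin E kinase CDK2 switch it on as the CDC45, MCM and GINS helicase. Primase and polymerase alpha then lay down primers, and polymerases delta and epsilon copy the strands with the PCNA clamp. Many of these genes are targets of E2F1, so their RNA is commonly read as a sign of cells in or near S phase, and in bulk RNA fewer such cells and less RNA per cell cannot be told apart.

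Two-colour ratios depend on how the dyes are balanced, and this mattered here. All ratios below are log2 values, co-culture over single culture, after loess normalization, which sets each probe against probes of the same brightness on the same array. On P114 array 1, 89.4% of spots in Cy3 and 91.7% in Cy5 were well above background, against 57.9% to 65.7% on the other arrays. The replication genes were bright, with a median log2 intensity of 9.89 against 8.63 for all tested genes, so the 3614 tested genes in the brightness range of their middle 50% (9.05 to 11.60) are given as a second background, chosen after the values were seen. An earlier choice of background, the 4034 tested genes at least as bright as the median replication gene, was replaced because it is brighter as a whole, and counts beside it are given too. With median centring in place of loess, which leaves brightness trends in, the median over all tested genes became 0.22 (P114) and 0.91 (CMT-U27).

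How well a single probe repeats can be read from probes whose sequences overlap. GINS3, a subunit of the GINS helicase complex, was measured by a pair of 60-base probes on chromosome 2 of CanFam3.1, at chr2:58234668-58234727 and chr2:58234667-58234726, listed in descending order. They are shown because they share all but 1 base, and capitals mark the shared run.
GINS3 probe 1: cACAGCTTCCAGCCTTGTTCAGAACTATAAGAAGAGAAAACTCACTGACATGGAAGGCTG
GINS3 probe 2: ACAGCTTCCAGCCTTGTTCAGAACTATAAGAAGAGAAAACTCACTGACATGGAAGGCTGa
Their ratios differed by at most 0.06 on any of the 4 arrays. Of 44 probe pairs within a gene, 6 shared a run of 20 bases or more. Among these the largest difference on an array was 0.06 for the MCM7 pair (56 shared bases), 0.14 for the ORC3 pair (58 shared bases), whose probes differed in sign on CMT-U27 array 2, and 0.32 for the TK1 pair (24 shared bases). Probes to different parts of a gene differed by more in places, up to 0.97 for TK1, and 8 of the 24 genes with several probes had probes of opposite sign in P114 and 4 in CMT-U27.

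In P114 cells kept with TAMs, most replication genes stood slightly above their single-culture level on both arrays, with MCM2 and MCM5 highest, and none of these ratios passed the test over all probes. The ratio was above 0 on both arrays for 31 of 56 genes (55.4%), against 23.5% of all tested genes, 23.5% of the genes of like brightness and 20.7% of the 4034 genes chosen first. It was below 0 on both for 2 (3.57%), against 19.1% of all tested genes. Over the 56 genes the median log2 ratio was 0.13, with 47 above 0 and 9 below, beside a median of 0.01 over all tested genes. By array, the genes' median was 0.15 on array 1 and 0.11 on array 2, so both dye orientations gave a median above 0. Taken alone, array 1 had 39 of the 56 genes above 0 (7013 of 12229 tested genes) and array 2 had 46 (5755 of 12229).

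**Figure D1:**
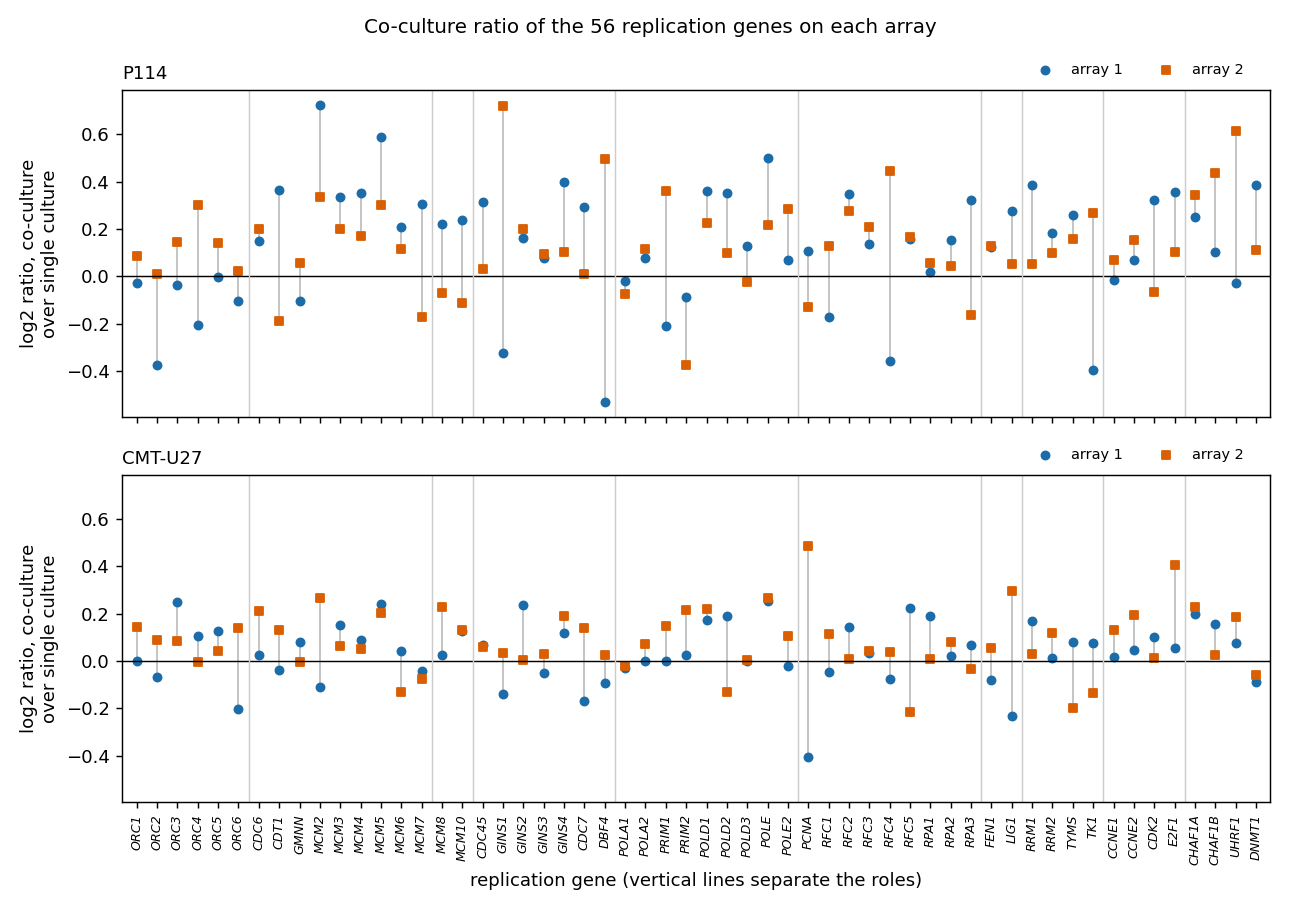
Log2 ratio of co-culture over single culture (vertical axes) of each of the 56 replication genes (horizontal axis, in order of role) in P114 (upper panel) and CMT-U27 (lower panel). Circles are array 1 and squares array 2, and a grey line joins the arrays of a gene. In P114, 31 genes have both points above 0, and MCM2 is highest among them, while the 6 ORC genes have array 1 below 0 and array 2 above.

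With limma, 0 of 28690 probes (0%) passed an adjusted p of 0.05 in P114, and 1757 had an unadjusted p under 0.05. Each named gene below therefore has no call, and the smallest adjusted p of a replication gene was 0.797. On simulated data this fit made more false calls than its threshold allows in most draws, so its unadjusted p-values may be too small. At an unadjusted p under 0.05, 12 of the 56 genes were higher and 1 was lower. At that level 3.73% of all tested genes were higher, and 216 of the 3614 genes of like brightness. Across genes the arrays of P114 did not repeat one another, with a Pearson correlation of -0.26 over the 56 genes and -0.16 over all tested genes.

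The helicase ring held the highest ratios of P114. MCM2 stood at 0.72 on array 1 and 0.33 on array 2, a mean of 0.53 with a standard error of 0.06 (1.44-fold, limma unadjusted p = 0.0013, adjusted p = 0.797). MCM5 stood at 0.59 and 0.30, a mean of 0.45 with a standard error of 0.09 (1.36-fold, limma adjusted p = 0.797). In both genes array 1 gave the larger value and both arrays lay above 0. For MCM2 the co-culture in Cy3 gave the higher ratio in CMT-U27 too (-0.11 on array 1 and 0.27 on array 2). The dye term took up most of this gap, so the standard error of MCM2 does not measure it. MCM3 stood at 0.34 and 0.20, MCM4 at 0.35 and 0.17, and MCM6 at 0.21 and 0.11. MCM7 differed between the arrays, at 0.31 and -0.17. The other MCM4 probe stood at 0.01 and -0.12. The MCM5 probe matches the assembly in pieces over an interval longer than its 60 bases, at chr10:28721725-28722709 (descending), and is shown because it carries a leading ratio in both lines, with no part singled out.
MCM5: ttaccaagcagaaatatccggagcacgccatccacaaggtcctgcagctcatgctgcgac
Of the loaders, CDC6 stood at 0.15 and 0.20. CDT1 (0.36 and -0.19) and its inhibitor GMNN, or geminin (-0.11 and 0.06), had arrays of opposite sign.

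The origin recognition genes stood near 0. None of ORC1 to ORC6 was above 0 on both P114 arrays (0 of 6), and their median ratio was 0.04, with 4 above 0 and 2 below. On array 1 all 6 were below 0 (a median of -0.07), and on array 2 all 6 were above (0.11). ORC4 had the widest gap, at -0.21 and 0.30, and ORC2 stood at -0.37 and 0.01. Their sign in P114 thus went with the array, which is also the dye orientation. On CMT-U27 array 2, also with the co-culture in Cy3, 5 of the 6 were above 0, and on CMT-U27 array 1 3 were. In P114 without background correction 2 of the 6 were above 0. With median centring all 6 were, at a median of 0.31 beside 0.39 for the genes of like brightness.

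Among the firing factors, GINS4 stood at 0.40 and 0.10 in P114, GINS2 at 0.16 and 0.20, CDC45 at 0.31 and 0.03 and the kinase CDC7 at 0.29 and 0.01. GINS1 (-0.32 and 0.72) and DBF4, the activating subunit of CDC7 (-0.53 and 0.50), had the widest gaps between P114 arrays of the 56 genes. No direction can be given for them.

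The leading-strand polymerase POLE stood at 0.50 and 0.22 in P114, a mean of 0.36 with a standard error of 0.08 (1.28-fold, limma adjusted p = 0.797). The catalytic subunit of polymerase delta, POLD1, stood at 0.36 and 0.23. Both were above 0 on each array. The primase and polymerase alpha genes were mixed: POLA1 stood at -0.02 and -0.07, and PRIM2, the large primase subunit, at -0.09 and -0.37. POLA2 stood at 0.08 and 0.11, and PRIM1 at -0.21 and 0.36. POLA1 and PRIM2 were the 2 replication genes below 0 on both P114 arrays, and both stayed below 0 in P114 without background correction, by the scanner's log ratio, and with median centring. The other PRIM2 probe had P114 arrays of opposite sign.

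RFC2, a subunit of the clamp loader, stood at 0.35 and 0.28, a mean of 0.31 with a standard error of 0.07 (limma adjusted p = 0.797). RFC3 stood at 0.14 and 0.21 and RFC5 at 0.16 and 0.17, and all 5 RFC5 probes were above 0. RFC4 (-0.36 and 0.45) and RFC1 (-0.17 and 0.13) had arrays of opposite sign. PCNA, the clamp itself, stood at 0.11 and -0.13, and its other probe at -0.60 and 0.25, so the probes differed in the sign of each array. The flap nuclease FEN1 stood at 0.13 on both arrays and the ligase LIG1 at 0.28 and 0.05.

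RRM2, the regulated subunit of ribonucleotide reductase, stood at 0.19 and 0.10 in P114. TYMS, which makes dTMP, stood at 0.26 and 0.16 by its brighter probe and at 0.44 and -0.09 by the other. TK1, the salvage kinase of thymidine, stood at -0.39 and 0.27. Of the entry regulators, E2F1 stood at 0.36 and 0.10, a mean of 0.23 with a standard error of 0.06 (limma adjusted p = 0.797). CCNE1 (-0.01 and 0.07) and CCNE2 (0.07 and 0.16), which encode the cyclins E1 and E2, were close to 0. The chromatin assembly subunits were above 0 on both arrays, CHAF1A at 0.25 and 0.34 and CHAF1B at 0.10 and 0.44, as was the maintenance methyltransferase DNMT1, at 0.39 and 0.11.

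Of the 31 genes above 0 on both P114 arrays, 30 (all but RPA1) were so without background correction, by the scanner's log ratio and with median centring as well. That is 53.6% of the 56, against 14.3% of all tested genes and 17.2% of the genes of like brightness. These counts rest on the brightest probe of each gene. By another probe MCM3, MCM4, CDC7, POLE2, RPA1, RRM1 and TYMS were not above 0 on both P114 arrays after loess. The split of 47 genes above 0 and 9 below became 44 and 12, 46 and 10, and 54 and 2 under these scalings in turn. With median centring 3551 of the 3614 genes of like brightness were above 0 too. The margin over other genes depended on the scaling. The median of the 56 genes was 0.13 against -0.01 for the genes of like brightness without background correction, and 0.16 against 0.01 by the scanner's log ratio. With median centring it was 0.44 against 0.39, and against 0.42 for the 4034 genes chosen first.

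In CMT-U27 cells POLE, E2F1 and MCM5 had the highest ratios of the replication genes, none past the test, and how the 56 genes stood to other bright genes depended on which genes were taken. The ratio was above 0 on both arrays for 28 of 56 genes (50.0%), against 40.2% of all tested genes, 50.6% of the genes of like brightness and 37.5% of the 4034 genes chosen first. Under all 4 scalings 10 genes (17.9%) kept this, against 16.6% of all tested genes and 20.7% of the genes of like brightness. The 10 were ORC5, MCM5, MCM10, GINS4, POLD1, POLE, CDK2, E2F1, CHAF1A and UHRF1. It was below 0 on both for 3 (5.36%), against 11.3% of all tested genes. The median was 0.05, beside 0.03 over all tested genes and 0.08 over the genes of like brightness. Without background correction it was 0.01, as for the genes of like brightness, and with median centring it was 1.30, as for the genes of like brightness, and 1.41 for the 4034 genes chosen first. The split of 43 genes above 0 and 13 below became 30 and 26 without background correction. By the scanner's log ratio it was 34 and 22, and with median centring 56 and 0. There 53 of the 56 genes (94.6%) passed as higher, against 66.6% of all tested genes and 99.1% of the genes of like brightness.

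With limma, 0 of 28690 probes (0%) passed in CMT-U27 (928 unadjusted below 0.05, the lowest after adjustment 0.147). At an unadjusted p under 0.05, 4 of the 56 genes were higher (POLE, POLD1, E2F1 and CHAF1A) and 0 lower. At that level 2.93% of all tested genes were higher, and 193 of the 3614 genes of like brightness. The 4 named genes also had an unadjusted p under 0.05 in P114. Both lines' p-values come from 1 fit in which a gene has the same standard error in each line, so this overlap is not independent support. The adjusted p of each of them was 1. Over the 56 genes the arrays of CMT-U27 had a Pearson correlation of -0.30 with one another, and 0.05 over all tested genes.

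POLE stood at 0.25 and 0.27 in CMT-U27, a mean of 0.26 with a standard error of 0.08 (1.20-fold, limma unadjusted p = 0.0323, adjusted p = 1). POLD1 stood at 0.17 and 0.22, CHAF1A at 0.20 and 0.23 and MCM5 at 0.24 and 0.20. E2F1 stood at 0.06 and 0.40, so its mean of 0.23 rested mainly on array 2. MCM2 had arrays of opposite sign, at -0.11 and 0.27. Among the others above 0 on both arrays, though ORC3 and MCM8 not under every scaling, ORC3 stood at 0.25 and 0.08, GINS4 at 0.12 and 0.19 and UHRF1, which guides DNMT1 to newly copied DNA, at 0.07 and 0.18. MCM10 stood at 0.13 on each array, and MCM8, a helicase used in recombination, at 0.02 and 0.23.

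The remaining helicase subunits stayed near 0 in CMT-U27, with MCM3 at 0.15 and 0.06, MCM4 at 0.09 and 0.05, MCM6 at 0.04 and -0.13, and MCM7 at -0.04 and -0.08. DNMT1 stood at -0.09 and -0.06 and POLA1 at -0.03 and -0.02. These last 2 and MCM7 were the genes below 0 on both arrays; without background correction, by the scanner's log ratio and with median centring the mean of MCM7 was above 0, as were those of DNMT1 and POLA1 with median centring. PCNA had the widest gap, at -0.40 and 0.49. RRM2 stood at 0.01 and 0.12, CCNE1 at 0.02 and 0.13, and CCNE2 at 0.05 and 0.19.

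Taking the lines together, 19 genes (33.9%) were above 0 on all 4 arrays, against 11.3% of all tested genes, and POLA1 alone was below 0 on all 4, though above 0 in CMT-U27 with median centring. Under all 4 scalings the 19 became 6, which were MCM5, GINS4, POLD1, POLE, E2F1 and CHAF1A. The same held for 428 of 12229 tested genes and 165 of the 3614 genes of like brightness. For the mean of both lines limma passed 0 of 28690 probes (0%), with 1881 at an unadjusted p under 0.05. At that level 12 of the 56 genes were higher, against 5.45% of all tested genes and 354 of the 3614 genes of like brightness. MCM5 had the highest mean among those above 0 on all 4 arrays, 0.33 with a standard error of 0.06, followed by POLE at 0.31, CHAF1A at 0.26, POLD1 at 0.24 and E2F1 at 0.23 (limma adjusted p = 0.757 for each).

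The difference between the lines' ratios was tested as CMT-U27 minus P114, and limma passed 0 of 28690 probes (0%), with 821 at an unadjusted p under 0.05. Over the 56 genes the median difference was -0.07, with 38 ratios higher in P114 and 18 higher in CMT-U27. MCM2 had a difference of -0.45 with a standard error of 0.09 (limma unadjusted p = 0.0078, adjusted p = 1), though its CMT-U27 arrays differed in sign. A difference between the lines in these ratios was therefore not shown.

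The lines themselves differed in single culture, and here 9 replication genes passed the test. CMT-U27 had the higher level of 8 of them: the cyclin gene CCNE2, the helicase subunits GINS2 and GINS4, MCM8, the polymerase genes POLD1, POLD2 and POLE, and TYMS. P114 had the higher level of CCNE1 alone. By limma on the separate channels, 4348 of 28690 probes passed, and counted over genes P114 was higher in 8.08%, CMT-U27 was higher in 9.71%, and either held in 17.8%. So 9 of 56 is near the background, while 8 of the 9 point to CMT-U27. Of the 56 genes, 14.3% passed as higher in CMT-U27 and 1.79% as higher in P114. For the 3614 genes of like brightness these shares were 12.5% and 12.7%, so the CMT-U27 share was near that background too. With median centring all 9 kept their direction, but CCNE1 and CCNE2 alone passed, and the other 7 stood between -0.19 and -1.02. Without background correction MCM8 (limma adjusted p = 0.0659), GINS4 (0.0642) and POLE (0.0617) did not pass, nor did POLD2 (0.0527) and POLE (0.0682) with quantile scaling.

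Levels are log2 intensity, and each line had 2 single-culture channels. For CCNE2 they were 8.82 and 8.74 in P114 and 10.56 and 10.17 in CMT-U27. The difference was -1.58 with a standard error of 0.21 (2.99-fold lower in P114, limma adjusted p = 0.00721). For CCNE1 they were 11.66 and 11.54 in P114 and 10.84 and 10.58 in CMT-U27. The difference was 0.89 with a standard error of 0.18 (1.86-fold higher in P114, limma adjusted p = 0.0272). The cyclin E genes thus differed in opposite directions, and neither pair of lines' values overlapped. Such a gap held for 39.1% of all tested genes with CMT-U27 above, and for 34.6% with P114 above. The other CCNE1 probe gave 0.65 (limma adjusted p = 0.0254). The CCNE1 and CCNE2 probes share no run longer than 5 bases. With median centring the differences were -1.09 for CCNE2 and 1.33 for CCNE1, and both still passed, at limma adjusted p values of 0.00752 and 0.00597.

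The 6 probes below are shown because they carry differences between the lines, in CanFam3.1 coordinates as the files list them and with no part singled out. CCNE2 lies at chr29:39535606-39535665 (descending) and POLE at chr26:479594-479653 (ascending). GINS2 at chr5:66991676-66995445 (ascending), GINS4 at chr16:24057031-24057179 (descending), POLD1 at chr1:106303440-106303583 (descending) and POLD2 on the unplaced scaffold Un_JH373316 from 98989 to 99378 (ascending) span more than their 60 bases, so these probes match the assembly in pieces.
CCNE2: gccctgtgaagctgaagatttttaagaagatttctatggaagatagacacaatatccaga
GINS2: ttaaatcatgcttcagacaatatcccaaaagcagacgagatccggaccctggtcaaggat
GINS4: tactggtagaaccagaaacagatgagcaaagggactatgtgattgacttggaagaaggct
POLD1: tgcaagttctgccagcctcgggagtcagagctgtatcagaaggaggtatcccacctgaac
POLD2: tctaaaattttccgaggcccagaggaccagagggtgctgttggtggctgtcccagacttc
POLE: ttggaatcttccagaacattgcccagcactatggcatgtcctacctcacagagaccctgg
Between the shown probes of different replication genes the longest shared run was 12 bases, between ORC2 and GINS2. The RefSeq table of another canine assembly placed 55 of the 56 genes on the chromosome of their probe, and the remaining gene was POLD2.

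The polymerase genes that passed, POLD1, POLD2 and POLE, were lower in P114, whereas POLD3, an accessory subunit of polymerase delta, had overlapping levels (a difference of 0.03). For POLD2, the second subunit of polymerase delta, the levels were 9.92 and 9.94 in P114 and 11.28 and 11.58 in CMT-U27 (a difference of -1.51, standard error 0.36, limma adjusted p = 0.0465). POLD1 was at 9.56 and 9.62 against 10.29 and 10.55 (-0.83, standard error 0.16, limma adjusted p = 0.0227). POLE was at 8.79 and 8.99 against 9.70 and 9.93 (-0.92, standard error 0.21, limma adjusted p = 0.0409). The levels of these 3 genes did not overlap between the lines, with CMT-U27 above, as in 39.1% of all tested genes. Of the GINS genes, GINS2 was at 8.43 and 8.59 against 9.54 and 9.69 (-1.11, standard error 0.17, limma adjusted p = 0.0129). GINS4 was at 10.07 and 10.16 against 10.90 and 10.84 (-0.75, standard error 0.18, limma adjusted p = 0.0458). GINS1 (-0.79, limma adjusted p = 0.547) and GINS3 (-0.12, 0.661, with overlapping levels) did not pass. MCM8 differed by -0.63 with a standard error of 0.15 (limma adjusted p = 0.0422).

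TYMS was at 12.99 and 13.04 in P114 and 14.15 and 14.23 in CMT-U27, a difference of -1.18 with a standard error of 0.26 (2.26-fold lower in P114, limma adjusted p = 0.0346), and its other probe gave -1.51 (adjusted p = 0.0562). TK1 pointed the other way, at 15.29 and 15.24 against 14.17 and 14.50 (0.92, limma adjusted p = 0.112); of its other probes, 1 passed (0.84, adjusted p = 0.0433). The genes of dTMP synthesis and salvage thus stood in opposite order in the lines at these probes, though a TK1 probe elsewhere in the gene gave 0.18.

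**Figure D2:**
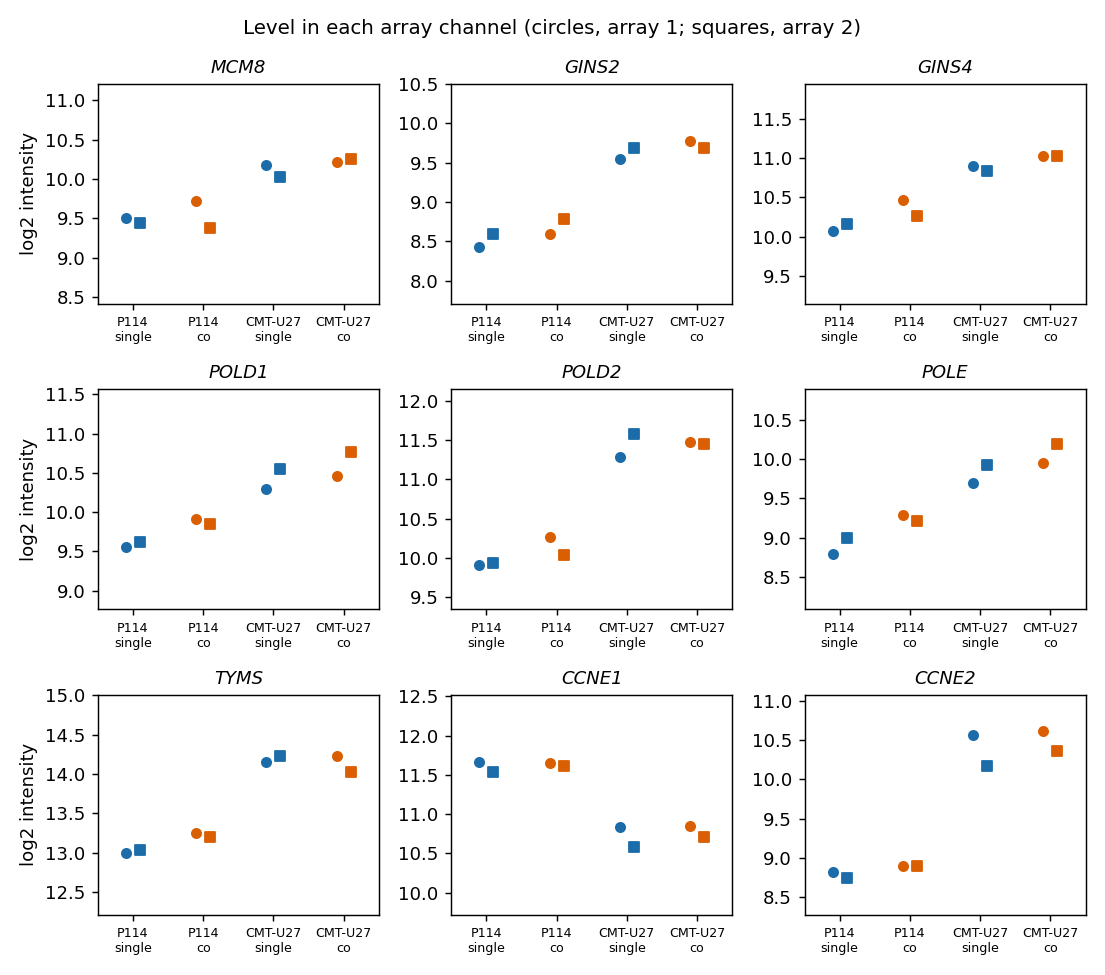
Log2 intensity (vertical axes, each spanning the same number of units) of the 9 replication genes that differed between the lines in single culture, in the 8 array channels. Blue is single culture and orange co-culture, circles are array 1 and squares array 2. The P114 points lie below the CMT-U27 points for 8 genes, and above them for CCNE1.

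Several genes that did not pass had differences of like size. RFC4 stood at -1.25 with a standard error of 0.56 (limma adjusted p = 0.209), MCM2 at -0.92 (0.0562), CDT1 at -0.85 (0.112), CHAF1B at -0.78 (0.0505) and RFC5 at -0.81 by its brightest probe (0.126). RFC5 had 3 other probes past the threshold, all lower in P114, from -0.75 to -1.20. On the P114 side stood RFC1 at 0.60, LIG1 at 0.57, ORC1 at 0.55, ORC6 at 0.50, PCNA at 0.48, ORC3 at 0.45, MCM10 at 0.43 and UHRF1 at 0.35, none past the threshold. An overlapping ORC3 probe passed (0.60, limma adjusted p = 0.032), whereas its probe elsewhere in the gene gave -0.10, and the other PCNA probe gave -0.22. The remaining ring subunits were MCM3 at -0.76, MCM7 at -0.50, MCM4 at -0.28, MCM6 at -0.13 and MCM5 at 0.03. RRM2 stood at 0.20 and E2F1 at -0.45.

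Over the 56 genes the median difference was -0.37, with 18 higher in P114 and 38 higher in CMT-U27, beside a median of -0.03 over all tested genes. Both CMT-U27 values lay above both P114 values for 36 genes (64.3%), against 39.1% of all tested genes, and the reverse held for 15 (26.8%), against 34.6%. By role, all 7 firing factors were lower in P114 (a median of -0.58), as were 7 of 9 loading genes (-0.38), 7 of 9 polymerase and primase genes (-0.44) and 6 of 9 clamp, loader and single-strand binding genes (-0.43). Of the 6 ORC genes, 5 were higher in P114 (0.38). The size and sign of these medians rested on the scaling. With median centring the median over the 56 genes was 0.04, with 29 higher in P114 and 27 lower. There 10 genes (17.9%) passed as higher in P114 and 2 (3.57%) as lower, against 16.3% and 4.19% of all tested genes, the 7 firing factors had 2 higher and 5 lower, and the loading and clamp genes had medians of 0.06 and 0.07. The genes of like brightness moved with them, to 0.44 from 0.02, so the gap between the replication genes and those genes was similar under both scalings.

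**Figure D3:**
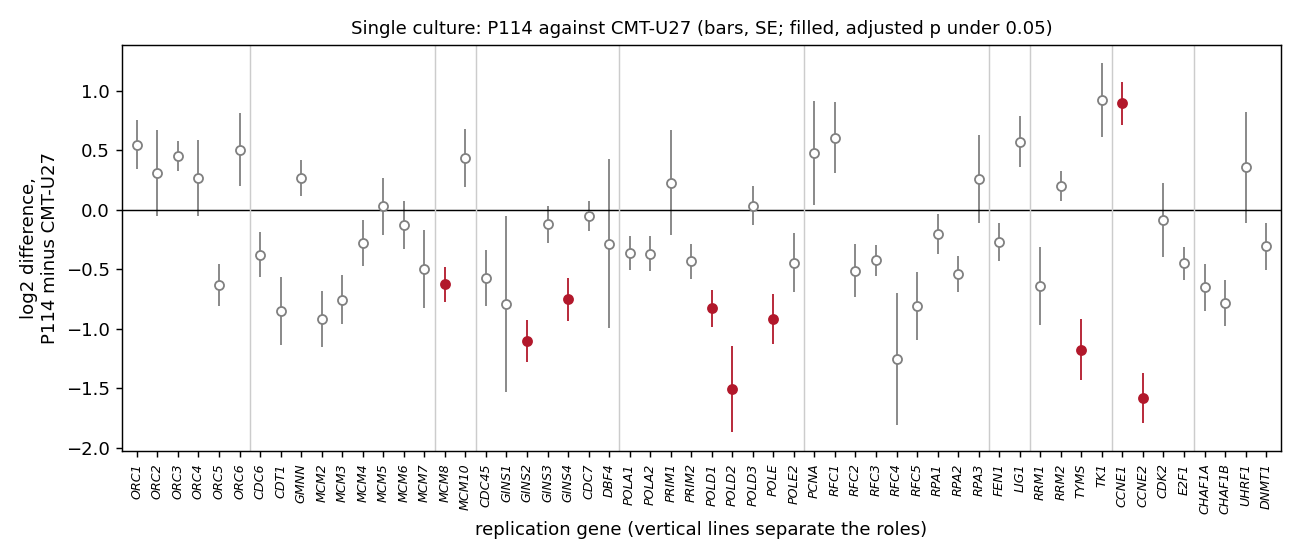
Difference in log2 intensity between the lines in single culture (vertical axis, P114 minus CMT-U27) for each of the 56 replication genes in order of role. Bars are standard errors from the fit, and filled points passed an adjusted p of 0.05. Of the filled points, 8 lie below 0 and CCNE1 lies above, and with median centring the median over all 56 genes was 0.04 in place of -0.37.

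**Figure D4:**
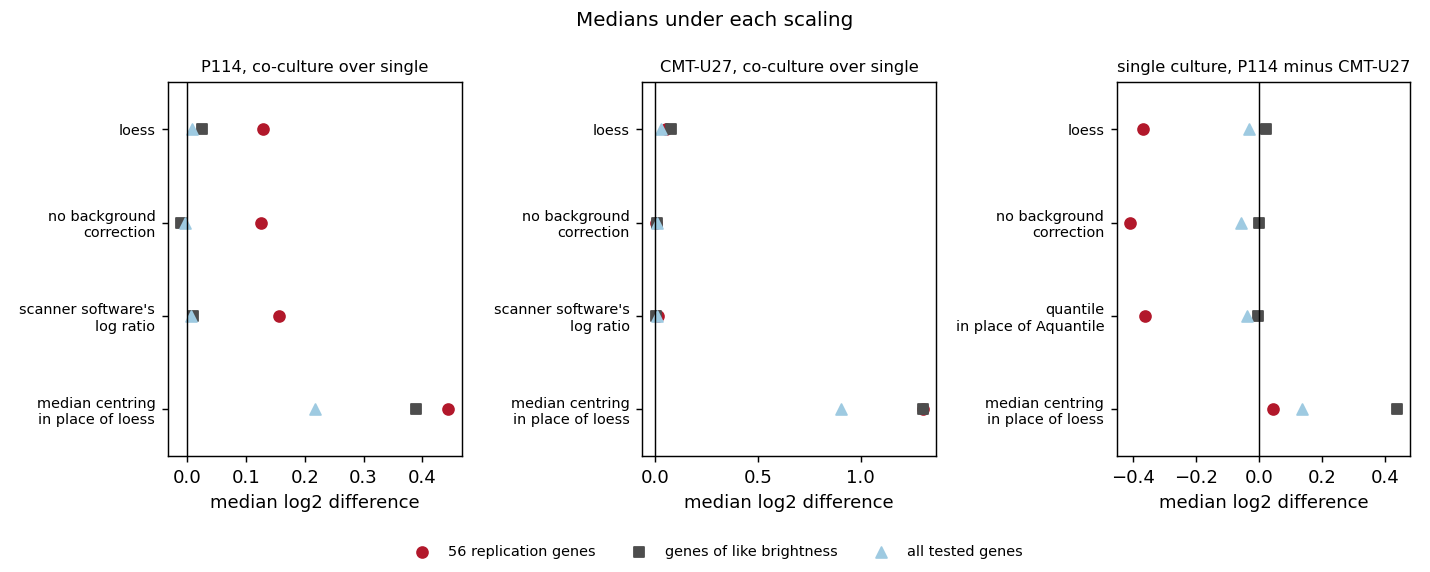
Median log2 difference (horizontal axes) of the 56 replication genes, of the tested genes of like brightness and of all tested genes, under 4 ways of scaling (vertical axes), for each line's co-culture ratio and for P114 minus CMT-U27 in single culture. In CMT-U27 the replication genes and the genes of like brightness both had a median of 1.30 with median centring, and in the right panel the replication genes lie below the genes of like brightness in each row.

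Other genes of DNA replication and its checkpoints, listed apart from the 57, also stood mostly above 0 in P114, at a lower median than the 56 (0.07 against 0.13). Of 50, 42 were tested, 32 were above 0 and 10 below in P114, at a median of 0.07, and 35 and 7 in CMT-U27, at 0.06. Of the 3614 genes in the brightness range of the 56, 2093 were above 0 and 1521 below in P114. In CMT-U27 they split as 3052 and 562, so the 42 genes were near that background there. None passed the adjusted threshold in either (0 of 42, with 1 higher and 1 lower at an unadjusted p under 0.05 in P114, against 3.73% of all tested genes that were higher). The lowest unadjusted p belonged to CDKN1A, the inhibitor of cyclin E and A kinases, at -0.52 and -0.26 in P114 (limma unadjusted p = 0.00487) and 0.26 and 0.11 in CMT-U27. TOP2A, the topoisomerase of dividing cells, followed in P114, at 0.17 and 0.36. In single culture 5 of the 42 passed, 2.38% as higher in P114 and 9.52% as lower. That is no more than the 8.08% and 9.71% of all tested genes. CDKN1A stood at 14.91 and 14.85 in P114 and 10.55 and 10.73 in CMT-U27, a difference of 4.24 (limma adjusted p = 0.000181), and E2F2 (-0.83), POLE4 (-0.81), E2F8 (-0.77) and CCNA2 (-0.74) were lower in P114.

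The co-cultures also held macrophages, and the lines differed in their cell-type markers. Of 18 macrophage markers, 5 were tested and 2 of these were well above background in every channel. The summed intensity of the 5 was 1506 to 1713 in P114 co-culture and 1715 to 1753 in its single culture, and 1994 to 2173 in CMT-U27 co-culture against 1654 to 1955. In P114 single culture CD86 stood at log2 intensities of 9.367 and 9.295, so this sum does not read macrophage RNA alone. In CMT-U27 CD74 had ratios of 0.62 and 0.36, from single-culture levels of 8.778 and 9.053. The mean ratios of CD68, CD14, CD86 and CD163 there were 0.13, 0.04, 0.01 and -0.004, with CD86 and CD163 not well above background. The epithelial sum of 6 markers was 20407 to 20410 in P114 single culture and 17389 to 18164 in its co-culture, with 5 of the 6 below 0 on both arrays (a median ratio of -0.23, KRT5 at -0.26 and -0.80, KRT18 at -0.33 and -0.20). In CMT-U27 it was 122380 to 135962 in single culture and 114900 to 130823 in co-culture. The fibroblast sum was 21536 to 22608 in P114 single culture and 21979 to 22367 in co-culture, and 3663 to 3933 against 4283 to 4715 in CMT-U27. It read mainly COL1A2, at 14.41 and 14.32 in P114 single culture and 11.46 and 11.59 in CMT-U27. COL1A2 differed by 2.84 between the lines and alone passed, and the other fibroblast markers differed by 0.13 to 0.33. Of the sort's genes, EPCAM was lower in P114 by a difference of -2.63 (limma adjusted p = 0.000877), and CD44 stood at 1.45 (0.109). The part of these differences in the replication gene results was not tested.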

How the data were processed

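Total RNA of sorted stem-like cells was hybridised to 4 two-colour arrays of Agilent design 021193, with probes placed on CanFam3.1 per the file headers. The labels' protocols name a miRNA labelling kit. The deposited scanner files hold linear intensity per spot with local background, and a log10 ratio column, red over green and corrected by the software per the file headers, made by Feature Extraction 10.10.1.1 (10.7.3.1 per the submitters' processing notes). The authors' deposited series values were identical to that log10 ratio (largest gap 0, median of 0 in each column, dyes not turned) and served as an alternative. Flags of other kinds per spot, deposited by the authors, were used for filters.

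Mean intensities were corrected by normexp with an offset of 50 and normalized by loess within arrays. Marked spots were left out, spots of a probe were averaged, and every ratio was turned so that co-culture stands over its control. Of 43603 probes, 28730 were well above background on both arrays of a line and culture, and 28690 were tested. The log2 ratios were fitted with limma 3.58.1 (R 4.3.3, the data.table package in version 1.17.8) with a coefficient per line and a dye term, leaving 1 residual and 2.76 prior degrees of freedom. Single-culture channels were compared by limma's separate-channel fit after Aquantile (spot correlation 0.937), with 3 residual and 2.69 prior degrees of freedom. Adjusted p is by Benjamini-Hochberg over all probes tested. Scripts were tested on simulated data with 6 seeds. Changed probes were recovered with the right sign, but the ratio fit made more false calls than its threshold allows in most draws, since its prior degrees of freedom are estimated from 1 residual degree of freedom. It made no call in the real data, and its unadjusted p-values may be too small. Plots used Python 3.11.15 and matplotlib 3.10.9.

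The 57 genes and the other lists were chosen with earlier results of these data known. Named were genes past the threshold, MCM2 to MCM7, PCNA, RRM2, CCNE1, CCNE2 and E2F1 always, and per comparison and direction up to 10 genes of one sign on both arrays with the largest ratios, with others given to show gaps between arrays and chosen after their values were seen. Both sets of genes of like brightness were defined after the data were seen, the second in place of the first. All 4 arrays lay on 1 slide. The number of arrays limits the precision. Alternatives are given in the closing section. POLE2 probes carry the description of another gene, DNAAF2, and the second RPA3 probe lies on chromosome 11, so both are uncertain.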

Additional observations from a re-analysis of the deposited data

Results flagged for a closer look

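Both differences below were picked because each array of a line lay on one side of 0 and each array of the other line on the opposite side. PRIM2, the large primase subunit, stood at -0.09 and -0.37 in P114 and 0.02 and 0.21 in CMT-U27, a difference (CMT-U27 minus P114) of 0.35 with a standard error of 0.09 (limma adjusted p = 1), and its other probe stood at 0.00 and 0.01 in the lines. DNMT1, the maintenance methyltransferase, stood at 0.39 and 0.11 in P114 and -0.09 and -0.06 in CMT-U27, a difference of -0.32 with a standard error of 0.11 (limma adjusted p = 1); with median centring its CMT-U27 ratio was 1.44. Neither difference passed the test over all probes.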

How the results depend on the processing

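Alternatives were run for the co-culture counts, the medians over the 56 genes, the named genes and the line comparison. Of the values of single named genes under an alternative, 656 kept their direction and side of the threshold, 35 gained a call, 18 lost one and 27 changed sign. Median centring moved the co-culture results most among the alternatives run, whereas the calls between lines moved more on dropping the dye term or an array, and the causes were not tested. With median centring limma called 5 probes in P114, 17342 in CMT-U27, 16518 for the mean and 12451 for the difference, in place of 0 each, and the medians over the 56 genes became 0.4441 in P114 and 1.301 in CMT-U27. It also turned the median line difference to 0.04414, those of MCM4, MCM6 and MCM7 to 0.1614, 0.4154 and 0.06017, PCNA in P114 to 0.4169, and in CMT-U27 MCM6 to 1.476, MCM7 to 1.505, POLA1 to 0.3072 and DNMT1 to 1.441. Without background correction 12 probes were called in CMT-U27 and 1 for the difference, the CMT-U27 median was 0.005137, the CCNE1 ratio was -0.003646 (P114) and -0.002724 (CMT-U27), and MCM4 and MCM7 at -0.006432 and 0.02035 in CMT-U27. By the scanner's log ratio, and so by the series values, the medians were 0.1562 in P114 and 0.01243 in CMT-U27, with MCM6 at 0.01167, MCM7 at 0.0414 and CCNE1 at -0.008255 in CMT-U27. The median over a gene's probes gave 0.1005 in P114 and MCM6 at 0.007788 in CMT-U27. A filter on all channels gave 1 call in CMT-U27. In the line comparison, dropping the dye term gave 9380 calls, 31 of them replication genes, against 4348 and 9, and no filter on dim probes gave 5 replication genes.

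Leaving out each array in turn, the co-culture counts ran from 0 to 64 in P114 (64 without array 2), 0 to 17 in CMT-U27 (17 without array 1), and 0 to 61 for the mean and for the difference (61 without P114 array 2). The medians ran from 0.1143 to 0.1509 in P114 and from 0.03702 to 0.06584 in CMT-U27. In P114 MCM7 ran from -0.1723 to 0.3079, PCNA from -0.1284 to 0.1092 and CCNE1 from -0.01376 to 0.06851; in CMT-U27 MCM2 ran from -0.1088 to 0.2676, MCM6 from -0.1317 to 0.04084 and PCNA from -0.4046 to 0.4859. The line comparison, with the spot correlation kept at 0.937, ran from 5788 to 17425 calls and 15 to 45 replication genes (40 and 45 without P114 array 1 or 2, 19 and 15 without CMT-U27 array 1 or 2), with the median from -0.4057 to -0.2807 and MCM5 from -0.1482 to 0.2016. With 3 arrays the prior is estimated from fewer values, and the lone array is assumed to vary like the others, so these counts are not firmer than the full fit. No paired analysis was possible because replicate numbers were given in accession order and pair nothing across lines, and each array already pairs both cultures. Signal over background limits dim probes, though all 56 genes passed it.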
